A study of Mus musculus with 5 samples.

Results

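The genes described here are maternally expressed imprinted genes outside the Dlk1-Dio3 domain, in mouse embryonic stem cells with and without Mkl2. The set was defined by 8 gene symbols: H19, Phlda2, Cdkn1c, Grb10, Igf2r, Slc22a18, Ascl2 and Zim1. A member counted as measured where the platform annotation gave an array feature that symbol and no other, and 7 of the 8 did, out of 19938 genes with such a feature. H19 had no such feature and was not analysed here. The cells were undifferentiated embryonic stem cells of strain C57BL/6, grown over a fibroblast feeder layer in medium with serum and LIF, in 2 wild-type and 3 Mkl2-/- cultures described as independent, with 1 whole-transcript array each. Mkl2 (current symbol Mrtfb) encodes a myocardin-related coactivator of serum response factor, and the title of the series places it in TGF-beta signalling. Whether the cultures of a genotype come from 1 or several cell lines is not stated in the sources used here, so p-values measure the spread between cultures.

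Imprinted genes are expressed mainly from the allele of 1 parent, under the control of stretches of DNA whose methylation differs between the parental chromosomes. Maternally expressed members often restrain growth, while paternally expressed genes of the same domains, such as Igf2, often promote it. Several of the genes are described as held silent on the paternal chromosome by long noncoding RNAs. These are Kcnq1ot1 in the domain of Cdkn1c and Phlda2 and Airn at Igf2r. Whether this silencing operates in the undifferentiated cells used here was not measured. The arrays measured the sum of both alleles, so an allelic change without a change of total RNA would not be seen.

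All levels are the deposited log2 expression values, and differences are given as Mkl2-/- minus wild type. The 3 features of Mkl2 were lower on every Mkl2-/- array, by 0.53 ± 0.09, 0.83 ± 0.07 and 0.98 ± 0.11 (SE) on the log2 scale. The first did not pass and the others did (limma adjusted p = 0.067, 0.0205 and 0.0309 over all features). On the Mkl2-/- arrays they still read 8.71 to 9.32, above background, and the labels do not say which stretch of the gene is deleted. Stem cell identity was checked with 15 marker genes, all of which had means above the background level of 7.30, the 95th percentile of 1027 olfactory receptor genes. Of the 15, 4 rose and 3 fell, while 2.99% of all genes rose and 6.28% fell. Of 33 measured fibroblast markers, 5 fell and 1 rose (18.2%, against 9.27% of all genes that passed). Of those that passed, S100a6 (-0.44 ± 0.03), Fstl1 (-0.88 ± 0.06), Mmp2 (-0.26 ± 0.02) and Twist1, which rose (0.31 ± 0.03), had the smallest p. In the limma fit 9 of the 33 were lower and 1 higher at an unadjusted p under 0.05. After quantile normalization 7 fell, and after cyclic loess normalization or centring on the median 8 did, with 1 rise each time. Without moderation none passed, and 8 (Postn, Lum, Fap, Tcf21, Mmp3, Dpt, Pi16 and Spon2) lay below background on every array. Without wild-type replicates 1 and 2 and Mkl2-/- replicates 1, 2 and 3 in turn, 1, 0, 0, 1 and 2 of the 33 fell. Feeder cells had been removed by letting them adhere before RNA was extracted. The markers' median difference was -0.023, and their mean log2 level was 8.16 and 8.14 in wild type and 8.04 to 8.07 in Mkl2-/-. Their sum on the linear scale, in which bright genes such as Vim and Sparc weigh most, was 25093 and 25692 against 20704 to 21401. As these are bulk samples, fewer cells of a type and less RNA per cell cannot be told apart.

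Phlda2 fell in Mkl2-/- cells and 4 other members with means above background (Cdkn1c, Grb10, Igf2r and Slc22a18) did not pass the test. Zim1 also fell, but all 5 of its values lay below the background level, and Ascl2, with a mean just below that level, did not pass. In sum, 2 of 7 measured members fell and none rose at an adjusted p of 0.05 (limma, Benjamini-Hochberg adjustment over all 19938 genes), and none of the 7 was higher at an unadjusted p under 0.05 either. Over all genes 9.27% passed, 6.28% lower and 2.99% higher in Mkl2-/-, and of genes with means above background 12.9% passed, with 8.79% lower. The 2 falls make 28.6% of the 7 members and are given as a count, since 7 genes allow no finer reading of that share. The median difference of the 7 members was -0.03, against 0.02 over all genes. Each member had a single feature, so no second feature could be compared.

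**Figure D1:**
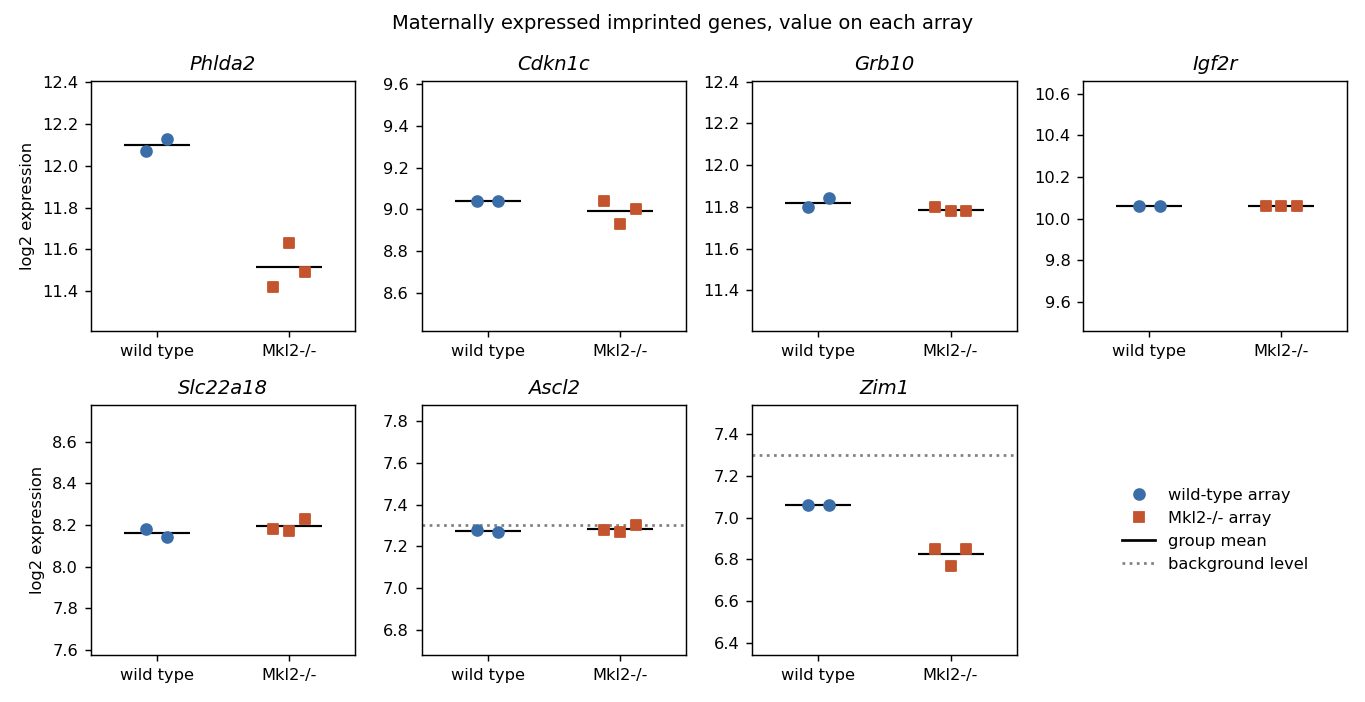
Log2 expression of the 7 measured members on each array, wild type (circles) and Mkl2-/- (squares), with horizontal lines for group means and a dotted line for the background level of 7.30; every panel spans the same range of 1.2 log2 units. Phlda2 and Zim1 are the 2 members whose groups do not overlap, which was the case for 33.6% of all genes.

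Phlda2 encodes a small pleckstrin homology domain protein that restrains growth of the placenta. It had wild-type values of 12.07 and 12.13 and Mkl2-/- values of 11.42, 11.63 and 11.49. All 3 Mkl2-/- arrays lay below both wild-type arrays, which was the case in one direction or the other for 33.6% of all genes. The means were 12.10 ± 0.04 (SD, n = 2) and 11.51 ± 0.11 (SD, n = 3). The fall was 1.502-fold, a difference of -0.59 ± 0.07 (SE; 95% interval -0.79 to -0.38; limma adjusted p = 0.0269). Of the 1252 genes that fell, 404 fell by at least as much as Phlda2, counting Phlda2 itself. With single arrays left out the difference stayed between -0.65 and -0.54, with adjusted p between 0.0483 and 0.145. The call held without Mkl2-/- replicate 2 and was lost without wild-type replicate 1, wild-type replicate 2, Mkl2-/- replicate 1 or Mkl2-/- replicate 3. It was also lost without moderation of the variances (adjusted p = 0.0926).

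Some marker genes of trophoblast fell as well. Of 19 trophoblast markers, the lineage in which Phlda2 and Ascl2 are best known, 6 fell (31.6%, against 6.28% of all genes) and 13 did not pass, with a median difference of -0.095. Without wild-type replicates 1 and 2 and Mkl2-/- replicates 1, 2 and 3 in turn, 2, 0, 1, 1 and 1 of the 19 fell, and 1 did without moderation. The transcription factor gene Hand1 (0.47) and the syncytin gene Syna (0.19) were higher at an unadjusted p under 0.05. The mean log2 level of the list was 8.47 and 8.46 in wild type and 8.29 to 8.36 in Mkl2-/-. The summed linear level, in which the bright keratin genes weigh most, was 18265 and 18759 against 13628 to 14550, while Elf5, Tpbpa, Synb and Plac1 lay below background on every array. Among those that fell were the keratin genes Krt8 (-0.54 ± 0.05) and Krt19 (-0.69 ± 0.05). The transcription factor genes Cdx2 (-0.37 ± 0.03) and Tfap2a (-0.265 ± 0.02) fell as well. The part of trophoblast genes in the fall of Phlda2 was not tested. With the mean of the fibroblast markers as a covariate the difference of Phlda2 was -1.01 (adjusted p = 0.323), in a fit in which no gene passed and 2148 had an unadjusted p under 0.05. That mean was 8.16 and 8.14 in wild type and 8.04 to 8.07 in Mkl2-/-, so the covariate ran with genotype on these 5 arrays. The fit can therefore hardly separate the covariate from genotype.

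The stretches upstream of the start sites are shown with their CpG sites, at which DNA can be methylated. They are those of Phlda2, of its immediate neighbour Slc22a18, which did not pass, and of Zim1, the other member that fell. Whether any of these stretches lies in an imprint control region was not examined, and methylation was not measured. Each line gives the 250 bases before the start in the RefSeq-based table of build GRCm38.p6, read 5′ to 3′ on the gene's strand, with CpG dinucleotides in capitals.
Phlda2, chr7:143502525-143502774, minus strand: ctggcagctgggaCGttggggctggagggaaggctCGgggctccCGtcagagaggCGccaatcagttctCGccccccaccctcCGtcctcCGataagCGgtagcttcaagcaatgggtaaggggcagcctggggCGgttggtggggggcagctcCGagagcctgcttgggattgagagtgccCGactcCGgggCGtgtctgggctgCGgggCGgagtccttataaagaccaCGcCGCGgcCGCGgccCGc
Slc22a18, chr7:143473539-143473788, plus strand: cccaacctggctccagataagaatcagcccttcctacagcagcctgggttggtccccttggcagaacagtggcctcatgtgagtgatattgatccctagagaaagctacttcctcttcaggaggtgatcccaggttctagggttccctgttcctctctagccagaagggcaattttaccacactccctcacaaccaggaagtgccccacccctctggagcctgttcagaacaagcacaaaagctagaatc
Zim1, chr7:6696433-6696682, minus strand: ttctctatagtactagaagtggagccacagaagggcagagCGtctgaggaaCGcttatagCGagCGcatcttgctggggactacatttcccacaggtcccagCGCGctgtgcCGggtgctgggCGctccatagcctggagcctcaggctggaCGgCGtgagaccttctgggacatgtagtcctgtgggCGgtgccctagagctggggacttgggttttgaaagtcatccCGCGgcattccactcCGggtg
The window of Phlda2 held 21 CpG sites, that of Zim1 held 14 and that of Slc22a18 held 0, and the median over 32851 windows was 6. The other members had 19 CpG sites (Ascl2), 27 (Igf2r) and 40 and 8 (the first and second of 2 listed starts of Grb10), and 16.3% of all windows held at least as many as Phlda2. Igf2r and the first start of Grb10 had more CpG sites than Phlda2, and neither gene passed the test. Cdkn1c had no entry.

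The CArG box, the sequence bound by serum response factor, was searched on both strands in its strict form. It was found in 0 of the 7 windows of the 6 members with an entry and in 1.47% of all windows. Of the 4 windows of Igf2, the paternally expressed growth factor gene next to H19, 1 held a match, 145 bases before the start, shown with 8 bases on either side and the box in capitals.
Igf2, chr7:142661409-142661434, minus strand: cagttttcCCATTTATGGagtcgcct
The hexamer TGCCGC, known from the binding site of the imprint-protecting protein ZFP57 and searched on both strands, occurred in the window of Zim1 and in no window of the other members, against 8.68% of all windows. A match describes these letters only.

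The other members of the Phlda2 domain did not pass the test. Cdkn1c, which encodes the cyclin-dependent kinase inhibitor p57, had wild-type values of 9.04 and 9.04 and Mkl2-/- values of 9.04, 8.93 and 9.0. The groups overlapped, and the difference was -0.05 ± 0.04 (95% interval -0.16 to 0.06; adjusted p = 0.435). Slc22a18, a transporter gene of the organic cation family, had wild-type values of 8.18 and 8.14 and Mkl2-/- values of 8.18, 8.17 and 8.23. Here too the groups overlapped, with a difference of 0.03 ± 0.03 (95% interval -0.04 to 0.11; adjusted p = 0.457). Ascl2, which encodes a basic helix-loop-helix factor needed by trophoblast, had wild-type values of 7.28 and 7.27 and Mkl2-/- values of 7.28, 7.27 and 7.30. These values sit at the background level, and the difference of 0.01 ± 0.01 (adjusted p = 0.713) turned to -0.022 after quantile and -0.0293 after cyclic loess normalization. The intervals of Cdkn1c and Slc22a18 do not reach the fall of Phlda2.

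No neighbour of Phlda2 on the chromosome passed the test with it. Of the 10 measured genes on each side in RefSeq order, none passed the limma test, 1 was lower and none higher at an unadjusted p under 0.05, and none passed in the fit without moderation. Their differences ran from -0.21 (Tnfrsf23) to 0.32 (R74862), with a median of 0.01, so all 20 lay above that of Phlda2. The run of 25 measured genes from Igf2 to Dhcr7 on distal chromosome 7 holds 4 of the members. Within it only Igf2 and Phlda2 fell and none rose, and 19 of the 25 had means above background. Lsp1, which also fell (-0.34 ± 0.03, limma adjusted p = 0.0131), lies outside the run on the Igf2 side. Of the 20 neighbours of Ascl2, 3 fell (Lsp1, Igf2 and Phlda2) and none rose, while 6.28% of all genes fell. Their median difference was 0.0075. The potassium channel gene Kcnq1 (0.105 ± 0.08, adjusted p = 0.447), whose intron gives rise to Kcnq1ot1, the tetraspanin gene Cd81 (-0.04 ± 0.03, adjusted p = 0.409) and the histone chaperone gene Nap1l4 (0.06 ± 0.06, adjusted p = 0.598), which lies next to Phlda2, did not pass. Kcnq1ot1 itself had no feature of its own and was not analysed here. Across chromosome 7, 4.87% of 1108 genes above background fell and their median difference was 0.04.

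**Figure D2:**
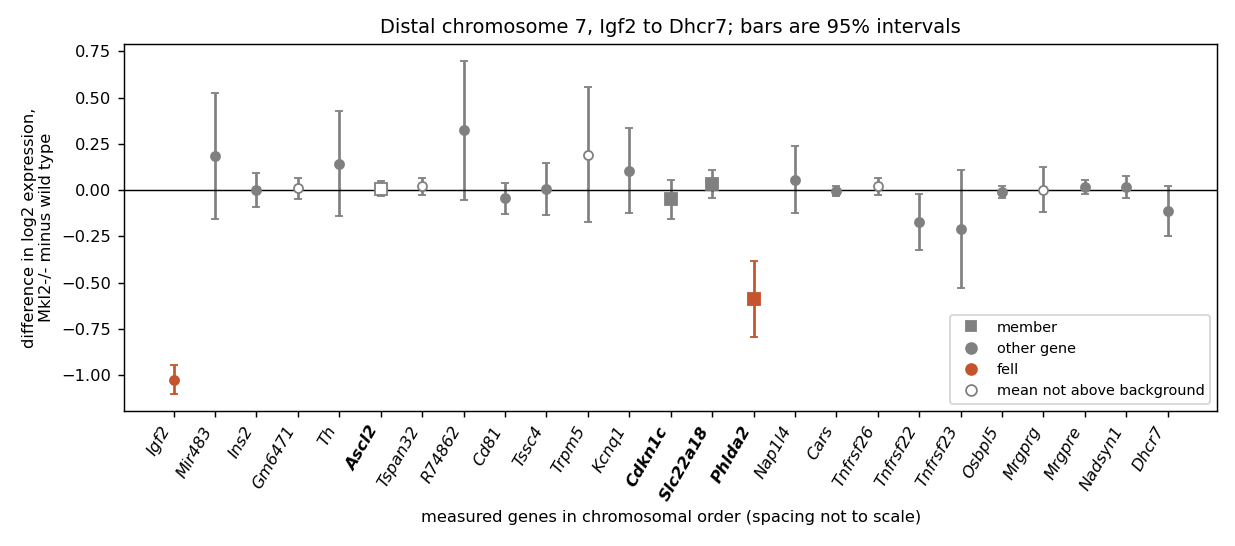
Difference in log2 expression, Mkl2-/- minus wild type, for 25 measured genes in chromosomal order on distal chromosome 7; squares with bold labels are members, open symbols have means not above background, and bars are 95% intervals of the limma fit. Igf2 (-1.02) and Phlda2 (-0.59) are the 2 genes that fell.

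Igf2r and Grb10 both limit growth factor signalling: Igf2r encodes the receptor that carries IGF2 to lysosomes for degradation, and Grb10 an adaptor that dampens signalling from the insulin and IGF1 receptors. Grb10 had wild-type values of 11.80 and 11.84 and Mkl2-/- values of 11.80, 11.78 and 11.78. Its groups touched at 11.80, and the difference was -0.03 ± 0.02 (95% interval -0.08 to 0.02; adjusted p = 0.376). Igf2r read 10.06 on all 5 arrays. Its difference was 0.00 with an adjusted p of 1.0, and no spread of its own could be estimated. After a further quantile normalization it differed by 0.04 (adjusted p = 0.41).

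Identical values were common in the table, which bears on how the members are read, both those that were flat and those that fell. Igf2r was 1 of 766 genes with the same value to 2 decimals on all 5 arrays. Wild-type replicate 1 and Mkl2-/- replicate 1 held the same value in 27.5% of genes, whereas Mkl2-/- replicate 1 was higher by exactly 0.01 in 3.60% and lower by 0.01 in 2.45%. Over all pairs of arrays the share of equal values ran from 15.45% to this 27.5%. It was 26.54% for wild-type replicate 1 with Mkl2-/- replicate 2 and 26.39% for Mkl2-/- replicates 1 and 2. Of the 7 members, 5 had equal values on wild-type replicate 1 and Mkl2-/- replicate 1, namely Cdkn1c, Grb10, Igf2r, Slc22a18 and Ascl2. Within the groups, Cdkn1c and Igf2r had equal values on both wild-type arrays and Grb10 on a pair of Mkl2-/- arrays, while Slc22a18 and Ascl2 had no tie within a group. Zim1, which fell, read 7.06 on both wild-type arrays and 6.85 on Mkl2-/- replicates 1 and 3. The partner gene Igf2 read 10.39 on both wild-type arrays. The wild-type SD of Zim1 and of Igf2 was thus 0.0, and their standard errors rest in part on these ties. In a fit restricted to the 19162 genes with any spread within a group, a setting chosen after seeing the data, Cdkn1c, Grb10, Slc22a18 and Ascl2 again did not pass and Phlda2 (adjusted p = 0.00603) and Zim1 (adjusted p = 0.0147) did.

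Among the partner genes at the same domains, the paternally expressed genes Igf2 and Peg3 fell. Igf2, the ligand cleared by Igf2r, had wild-type values of 10.39 and 10.39 and Mkl2-/- values of 9.40, 9.32 and 9.38. It fell 2.03-fold (-1.02 ± 0.03, adjusted p = 0.00541), and this call was lost when wild-type replicate 2 was left out (adjusted p = 0.0609). Airn, the noncoding RNA transcribed across Igf2r, had wild-type values of 8.43 and 8.56 and Mkl2-/- values of 7.95, 7.96 and 7.58. Its groups did not overlap, as for 33.6% of all genes. Its difference of -0.665 ± 0.15 did not pass (adjusted p = 0.0863), but it passed after quantile normalization (0.025), cyclic loess normalization (0.0225) or centring on the median (0.0443), all adjusted p-values. Igf2r was flat beside it. The 20 neighbours of Igf2r had a median difference of 0.02, and 3 of them fell and 1 rose, while 6.28% of all genes fell and 2.99% rose. The smallest p-values were those of the phosphodiesterase gene Pde10a (-0.86 ± 0.03, limma adjusted p = 0.00592) and the mitochondrial ribosomal protein gene Mrpl18 (0.25 ± 0.03, adjusted p = 0.0285). Around Grb10 no neighbour passed the limma test, 2 were higher and none lower at an unadjusted p under 0.05, and none passed without moderation, with Ddc (0.01 ± 0.01) and Cobl (0.01 ± 0.06) next to it. Of the 8 measured partner genes in all, 2 fell (Igf2 and Peg3) and none rose, with a median difference of 0.005. At an unadjusted p under 0.05, 3 were lower, Airn being the third, and none higher. Whether members and partners differ as groups was not tested.

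**Figure D3:**
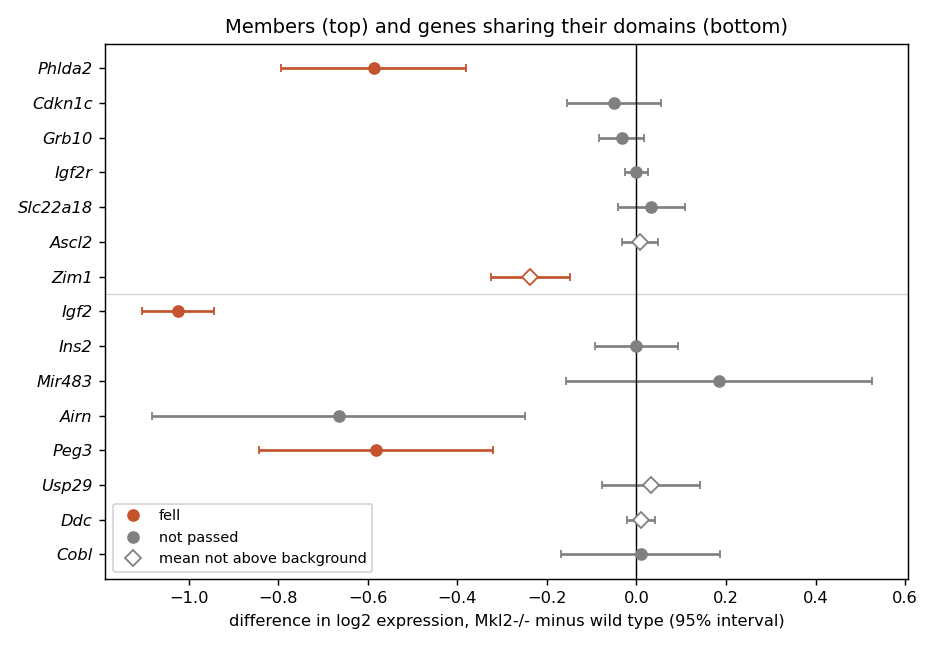
Difference in log2 expression, Mkl2-/- minus wild type, with 95% intervals of the limma fit, for the 7 members (top) and 8 genes that share their domains (bottom); diamonds mark means not above background. Phlda2, Zim1, Igf2 and Peg3 passed the test, and the interval of Igf2r rests on values that were identical on all 5 arrays.

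Other genes of IGF and insulin signalling fell around the flat Igf2r and Grb10. Of 20 measured genes 9 fell and none rose (11 were lower and 1 higher at an unadjusted p under 0.05), with a median difference of -0.14, against 6.28% of all genes lower and a median of 0.02. Igfbp3, which encodes the main circulating IGF binding protein, had wild-type values of 12.32 and 12.46 and Mkl2-/- values of 10.82, 10.75 and 10.86, a 2.99-fold fall (-1.58 ± 0.06, adjusted p = 0.00599). The binding protein genes Igfbp2 (-1.07 ± 0.04, adjusted p = 0.00624) and Igfbp4 (-0.99 ± 0.05, adjusted p = 0.00787) and Igf2 also fell. The receptor gene Igf1r (-0.56 ± 0.07) and the adaptor gene Irs1 (-0.68 ± 0.07) were among the others that fell. The insulin receptor gene Insr (-0.09), Igf1 (0.17) and Grb14, a relative of Grb10 (0.04), did not pass, while Grb7, another relative, fell by 0.18. Of those that fell, Igfbp2 and Irs1 lie on chromosome 1, where 30.4% of 757 genes above background fell. Igf2bp3 (-0.38 ± 0.03) lies on chromosome 6, where 19.2% of 620 such genes fell. Without wild-type replicate 1, wild-type replicate 2, Mkl2-/- replicate 1, Mkl2-/- replicate 2 and Mkl2-/- replicate 3 in turn, 5, 0, 4, 4 and 6 of the 20 genes fell. Fibroblasts are known to express several IGF binding proteins, and the summed fibroblast marker level given above was lower in Mkl2-/- while the median marker differed by -0.023; their part in these falls was not tested.

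**Figure D4:**
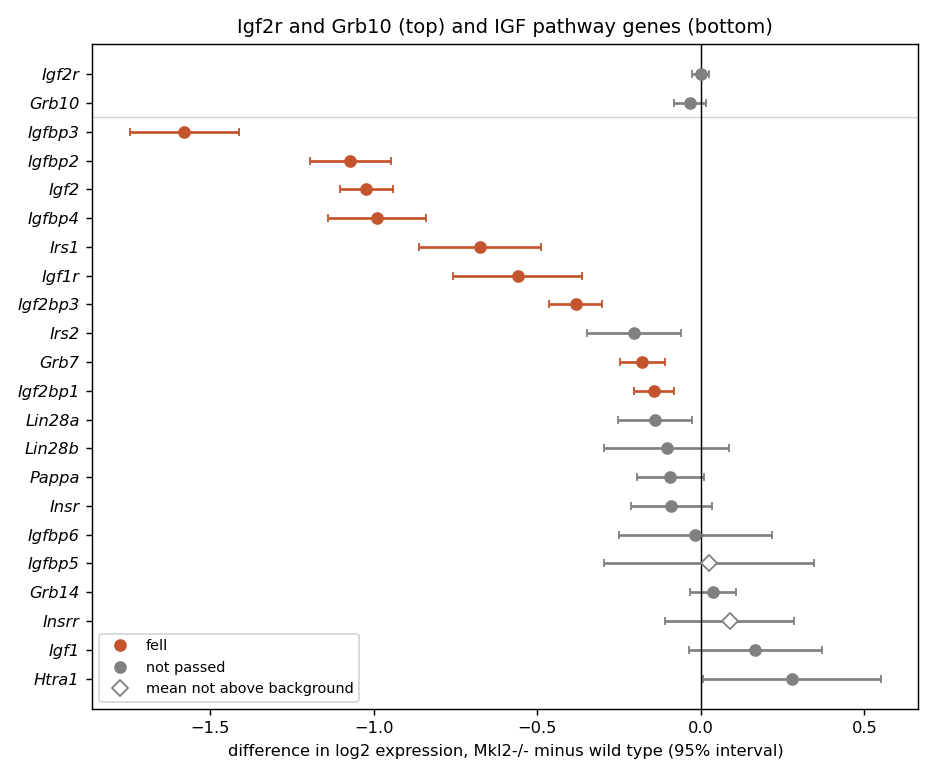
Difference in log2 expression, Mkl2-/- minus wild type, with 95% intervals of the limma fit, for Igf2r and Grb10 (top) and 20 genes of IGF and insulin signalling in order of their difference (bottom). Differences of the 9 genes that fell run from -1.58 (Igfbp3) to -0.14 (Igf2bp1), whereas Igf2r and Grb10 lie at 0.00 and -0.03.

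Zim1, an imprinted zinc finger gene, lies next to the paternally expressed zinc finger gene Peg3 on proximal chromosome 7. It had wild-type values of 7.06 and 7.06 and Mkl2-/- values of 6.85, 6.77 and 6.85, without overlap, as for 33.6% of all genes. The difference was -0.24 ± 0.03 (95% interval -0.33 to -0.15; limma adjusted p = 0.0303), and no fold is given because both groups lay below background. Peg3 had wild-type values of 11.42 and 11.63 and Mkl2-/- values of 11.05, 10.91 and 10.87. It fell 1.497-fold (-0.58 ± 0.09, adjusted p = 0.044), and its call was lost when any single array was left out (adjusted p 0.0787 to 0.155), with array weights (adjusted p = 0.0571) and over all features (adjusted p = 0.0615). Usp29, a paternally expressed neighbour, read 6.51, 6.51, 6.51, 6.51 and 6.61 over wild type and then Mkl2-/-, below background throughout. Among the 20 neighbours of Zim1, Peg3 alone passed the limma test, and the median was 0.06. At an unadjusted p under 0.05, 2 of these neighbours were lower and 0 higher. Clcn4 differed by -0.26 ± 0.06 without passing (limma adjusted p = 0.101). The call of Zim1 was lost without wild-type replicate 1, wild-type replicate 2, Mkl2-/- replicate 1 or Mkl2-/- replicate 3 (adjusted p from 0.0985 to 0.149), and with the fibroblast covariate its difference was -0.08 (adjusted p = 0.632).

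Other genes described as maternally expressed, at these domains or at further ones, passed at a rate near that of all genes. Of 26 measured, 1 fell and 1 rose (7.7%, against 9.27% of all genes), and their median difference was 0.03. Atp10a, a phospholipid transporting ATPase gene, fell 1.41-fold, from 9.65 and 9.72 to 9.24, 9.19 and 9.13 (-0.50 ± 0.04, adjusted p = 0.0142). Pon2, a paraoxonase gene, rose 1.18-fold, from 9.03 and 8.99 to 9.19, 9.30 and 9.27 (0.24 ± 0.04, adjusted p = 0.0476). Neither call was kept when any single array was left out.

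The measured family members and functional relatives of Cdkn1c, Phlda2 and Slc22a18 did not pass the main test, whereas Grb7, a relative of Grb10, fell as given above. None of 5 measured kinase inhibitor genes related to Cdkn1c by function passed, also at an unadjusted p under 0.05 or without moderation, and Cdkn1b, which encodes the closely related p27, differed by 0.145 ± 0.06 (adjusted p = 0.264). Phlda1 (0.02 ± 0.09) and Phlda3 (-0.07 ± 0.07), the family members of Phlda2, did not pass. Of 4 transporter genes of the Slc22 family none passed, with 1 higher (Slc22a17, 0.26 ± 0.06) and 1 lower (Slc22a5, -0.40 ± 0.08) at an unadjusted p under 0.05 and none without moderation. In the Slc22 family 1 gene passed as higher and 1 as lower after quantile or cyclic loess normalization, among genes above the median gene and among genes with any spread within a group. After centring, or among genes above background, 1 passed as lower. After quantile normalization 1 kinase inhibitor gene passed as higher.

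Genes known from a network of coregulated imprinted genes, most of them paternally expressed, were lower in Mkl2-/- in many cases. Of 14 measured, 8 fell and none rose (6.28% of all genes fell), with a median of -0.42, although Rtl1 and Ndn were higher at an unadjusted p under 0.05 and passed after quantile normalization, cyclic loess normalization or centring. Igf2 was one of the 4 with the smallest p, beside Nnat (-4.25 ± 0.13), the amino acid transporter gene Slc38a4 (-1.145 ± 0.05) and the mesoderm gene Mest (-0.55 ± 0.03). Plagl1, which encodes the zinc finger factor from which the network was described, fell 2.14-fold. Of those that fell, Mest and Sgce lie on chromosome 6 and Zdbf2 on chromosome 1, where 19.2% and 30.4% of genes above background fell. The number of falls was 4, 0, 4, 5 and 5 without wild-type replicates 1 and 2 and Mkl2-/- replicates 1, 2 and 3. The difference in frequency between this list and the members was not tested.

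By Euclidean distance between mean-centred log2 profiles over the 5 arrays, the genes most like Phlda2 were Dclk1 (0.027), Glul (0.038) and Ralgps2 (0.063). Those most like Zim1 were Adgrl2 (0.018), Tpd52l1 (0.023) and H2-Q5 (0.036). None of the 6 lies within the 10 neighbours of either gene, and Glul and Ralgps2 lie on chromosome 1.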

How the data were processed

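Total RNA of 2 wild-type and 3 Mkl2-/- cultures was amplified, converted to labelled cDNA and hybridised to Affymetrix whole-transcript arrays, per the labels' protocols. The deposited log2 values are the authors' RMA output, and the submitters' processing notes name Affymetrix Expression Console 1.1. Sources used here do not give other settings, scan dates or batches. RMA corrects background, quantile normalizes and summarizes probes, which compresses differences of dim features.

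The table held 35556 features, of which 21789 had 1 symbol, 1621 several and 12146 none in the platform annotation, and 21698 of the first matched the RefSeq gene table of GRCm38.p6 by Entrez identifier. The brightest feature by mean over all arrays stood for each of 19938 genes. The linear model and empirical Bayes steps of limma 3.58.1 (R 4.3.3) gave differences and p-values (no trend, 3 residual and 0.885 prior degrees of freedom), two-sided, with Benjamini-Hochberg adjustment over all genes and a threshold of 0.05. Intervals are moderated 95% intervals. A gene was called dim at or below 7.30, the 95th percentile of 1027 olfactory receptor genes, and 13553 genes lay above it. Figures used matplotlib 3.10.9 in Python 3.11.15.

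All members and Mkl2 were named by rule, as were partner genes at the domains and up to 2 neighbours per member that passed. Of each other list except the stem cell markers, up to 4 genes with the smallest p among those that passed were also named by rule. Further genes were chosen after their values were seen. The members and lists were chosen with earlier results of these data known. Of the lists, counts and medians are given without a set test. Precision is limited by the 5 arrays.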

Additional observations from a re-analysis of the deposited data

How the results depend on the processing

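Of the 7 measured members, Phlda2 and Zim1 stayed lower in Mkl2-/- in every alternative in which they were fitted (18 for Phlda2, 16 for Zim1) and passed in 11 and 9 of them, and no other member passed in any. The count of 2 falls was 1 with either filter on dim genes, which removed Zim1, and 1 with a 1.5-fold minimum, which Zim1 did not reach and Phlda2, at 1.502-fold, just did. It was 0 without moderation and with the fibroblast covariate, where 294 and 0 genes passed in all. Leaving out single arrays gave 0 to 2 members and 0 to 963 genes. The 1848 genes called became 3234 with quantile normalization, 2982 with cyclic loess and 504 with a 1.5-fold minimum. Rises made 1483 of the 3234 and 596 of the 1848, and 473 of the 963 without wild-type replicate 1. The fit without wild-type replicate 2 made 0 calls, with 4411 genes at an unadjusted p under 0.05. Among members that never passed, Cdkn1c turned to 0.13 with the fibroblast covariate, and Ascl2 to -0.022 with quantile and -0.0293 with cyclic loess normalization. With 5 neighbours on each side, the median differences around Cdkn1c, Grb10 and Igf2r were 0.0267, 0.015 and 0.05, against 0.01, 0.02 and 0.02 with 10. With the 90th percentile of olfactory receptor genes as background, 6 members lay above it, against 5. In the alternatives with a gene list each, IGF genes that fell numbered 0 to 10, with 0 under the block, under the covariate and without wild-type replicate 2.

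The replicate numbers are shared between the groups. Deviations of same-numbered samples from their group means had correlations of -0.20 for number 1 and 0.19 for number 2. With 2 wild-type arrays the wild-type deviations mirror each other. The check therefore cannot decide whether same-numbered samples share more than a number. With a replicate block, 0 genes and 0 members passed, an unadjusted p under 0.05 was seen in 3827 genes, and the fit kept fewer residual degrees of freedom. The next brightest feature of a member could not be tried, because each member has 1 feature. The cause of the other changes was not tested.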

Other observations

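Genes that set, protect or read imprints changed in both directions. Of 23 measured, 4 rose and 2 fell, with a median difference of 0.01, and 9.27% of all genes passed. Without wild-type replicates 1 and 2 and Mkl2-/- replicates 1, 2 and 3 in turn, 0, 0, 1, 1 and 1 of the 23 passed. Without moderation 1 passed, and after quantile normalization 9 did, 7 of them higher. Dnmt3l, the cofactor of de novo DNA methyltransferases, rose 1.92-fold, from 10.33 and 10.35 to 11.33, 11.32 and 11.19 (limma adjusted p = 0.00798). Zfp57, whose protein keeps methylation at imprint control regions, rose 1.21-fold (0.28 ± 0.04, adjusted p = 0.0315), and the histone methyltransferase gene Ehmt2 rose 1.17-fold (0.23 ± 0.03, adjusted p = 0.0296). The dioxygenase gene Tet3 fell 1.52-fold (-0.605 ± 0.07, adjusted p = 0.0231). Trim28, the corepressor partner of ZFP57, did not pass (0.03 ± 0.01, adjusted p = 0.353).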
